A study of Drosophila melanogaster with 2 samples.

Results

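The genes described here encode the proteins of the small (40S) subunit of the cytoplasmic ribosome of Drosophila melanogaster. They were taken by symbol from the Ensembl BDGP6 annotation: every protein-coding gene named RpS followed by a digit, and sta, which encodes the small-subunit protein uS2. Mitochondrial ribosomal protein genes were left out. The rule gave 39 of the 13945 protein-coding genes on the 6 chromosome arms that carry peaks. The rule uses symbols only, and it was set with earlier results of these data known. The study mapped E(spl)m5-HLH, a basic helix-loop-helix repressor of the Enhancer of split complex, by chromatin immunoprecipitation and sequencing. The 2 samples, biological replicates 3 and 4, form 1 group: whole embryos of both sexes, collected from 0 to 12 hours, from a transgenic line that stably expresses E(spl)m5 with GFP at its C terminus; the labels do not say which promoter drives it. There was no second condition, so no value is a contrast between groups of samples.

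The small subunit binds the mRNA and decodes it. Its head, with a projection called the beak, and its body, with a side lobe called the platform, enclose the mRNA channel and the tRNA sites. Ribosomal protein genes are among the most strongly transcribed genes of growing cells. In flies many of them start transcription within a pyrimidine-rich initiator, the TCT element, in place of the usual initiator. Losing 1 copy of many of these genes gives the Minute phenotype of slow growth and short bristles. E(spl) proteins are known for binding E-box-like sites near proneural genes and for recruiting Groucho, and ribosomal protein genes are not among their classical targets.

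The labels conflict on one point: a free-text line names both libraries as input controls, but the antibody and assay fields are those of an immunoprecipitation, and they are treated as immunoprecipitates here. No list from an untagged line or a mock precipitation was used here, and whether signal at these promoters would also arise without the tagged protein was not tested. Each of 3 deposited candidate lists (replicate 3, replicate 4, pooled reads) holds 30000 peaks. Another list holds the 2487 that passed the authors' reproducibility step, called thresholded here. They were the pooled candidates of highest signal, down to 114.4. Signal is the authors' value per peak relative to a control, on a scale the sources do not state, and read depth is unknown. In whole embryos, stronger binding in each cell and binding in more cells cannot be told apart.

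A match to CTTTNT, called the tract here, stood in the start windows of 14 of the 27 genes with a thresholded summit and of 5 of the other 12. With any annotated start these counts were 15 and 6. At the main start 13 of the 27 had no match, but such a window can hold another pyrimidine run, as that of RpS3A does. The first 3 windows shown lack it, and the next 9 hold it. RpS27 and RpS4 had the highest pooled signals among the small-subunit genes, 898.5 and 519.0. Their summits were nearest to another annotated start, at 25247472 for RpS27 and 13041801 for RpS4. The windows shown for RpS27 and RpS4 therefore do not tell whether the tract is absent at the start nearest the summit. Those of RpS10b and RpS21 hold the tract but were set at starts 19598040 and 2856111. Their summits were nearest to other starts, at 19598031 and 2856070. These 2 windows therefore do not tell whether the tract is present at the start nearest the summit. In the start windows, from 10 bases before the annotated start to 20 from it, capitals mark the first CTTTNT on the gene's strand. CTTTNT is a short form of the TCT initiator's sequence, accepted at any position of the window. In the windows shown it begins after the annotated start, so it was not placed at the start itself. The start is the one most transcripts share. All coordinates are on dm6 and the sequence is that of the RefSeq assembly of the same build.
RpS27, chr3R:25247495-25247524, minus strand: agcattatttagtgcattctcgggcaagtt
RpS4, chr3L:13041746-13041775, plus strand: tccagtatttagttattcgacgccaactgc
sta, chrX:1483273-1483302, minus strand: cccggaaatcggccattttgtcaaaactcc
RpS28b, chrX:9554613-9554642, plus strand: ccgataaccgctcaacttcCTTTTTgcttg
RpS25, chr3R:11216268-11216297, minus strand: tttccgccctccatCTTTCTgcattgactt
RpS10b, chrX:19598030-19598059, plus strand: tgtcatcccttccgtttccCTTTCTtttcg
RpS21, chr2L:2856101-2856130, plus strand: cagctgtcatttCTTTCTctttttcgcctt
RpS19a, chrX:16637884-16637913, plus strand: ttcacgcgccttgttCTTTTTtccggttga
RpS15Aa, chrX:13337619-13337648, minus strand: ccttccgtttccCTTTCTtttccctttttc
RpS5a, chrX:17148245-17148274, minus strand: tgccgtaacatgttCTTTTTcaggcgtttg
RpS14a, chrX:7933732-7933761, plus strand: agctacgtcaaccttCTTTTTtgatatccg
RpS14b, chrX:7934888-7934917, plus strand: gtgttgtttttgccttCTTTTTttcgcatc
Of 4 genes without a thresholded summit, shown for comparison, RpS3 and RpS5b hold the tract, and RpS10a and RpS19b, the partners of RpS10b and RpS19a, do not.
RpS3, chr3R:23358802-23358831, plus strand: ggcacactggcctCTTTCTtttctgcgcac
RpS5b, chr3R:14901544-14901573, minus strand: cttttaccgtttCTTTTTcatcctctttct
RpS10a, chr3R:27652750-27652779, plus strand: ttcggtaaatactaatttaagctggccaca
RpS19b, chr3R:23933511-23933540, minus strand: ccaatcgtccattttgactaaagtcagcaa

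Sites within 100 bp of the strongest summits are shown with 10 bases to each side and the site in capitals. TATCGATA is the DNA replication-related element (DRE), bound by the core promoter factor DREF. CACGTG, the class B E box, and CACGCG, the class C site, are described for the E(spl) family.
RpS25, DRE 6 bp from the summit, chr3R:11216329-11216356, minus strand: caccaccaacTATCGATAggcaggcgag
RpS29, DRE 14 bp from the summit, chr3R:9778047-9778074, plus strand: tcgtggaaaaTATCGATActgccacccc
RpS12, DRE 39 bp from the summit, chr3L:13023301-13023328, plus strand: tctgcgaaacTATCGATAtttgtaccaa
RpS14a, DRE 61 bp from the summit, chrX:7933668-7933695, plus strand: acacactcccTATCGATAagctatcgcc
RpS4, class B E box 61 bp from the summit, chr3L:13041852-13041877, plus strand: tgcagctagcCACGTGctaagttttg
RpS28b, class B E box 64 bp from the summit, chrX:9554658-9554683, plus strand: gcgcatcttgCACGTGaattctctgc
RpS21, class C site 6 bp from the summit, chr2L:2856064-2856089, plus strand: cagggggcgcCACGCGcagcgcagcc
RpS19a, class C site 10 bp from the summit, chrX:16637876-16637901, plus strand: cagccaacttCACGCGccttgttctt

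Most small-subunit genes carried a peak near a start site. A thresholded summit lay within 1 kb of a start site at 27 of the 39 genes (69.2%), where 11.9% of all protein-coding genes had one. Genes with such a summit are called bound here. The 27 genes were reached by 28 different summits, because RpS28b had a second, weaker one. A candidate summit of the pooled list, of any strength, lay within 1 kb of 38 of the 39 genes (97.4%), where 57.5% of all protein-coding genes had one. The exception was RpS15Ab. Each replicate gave a similar count alone: among the 2487 strongest candidates, those of replicate 3 reached 24 of the 39 genes and 12.2% of all protein-coding genes, and those of replicate 4 reached 26 genes and 11.5%. The median signal of the strongest summit was 252.8 over the 27 bound genes and 162.5 over all 1653 bound protein-coding genes. Of the 27, 13 ranked among the 500 strongest pooled peaks and 22 lay above 161.6, the median signal of the thresholded list.

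**Figure D1:**
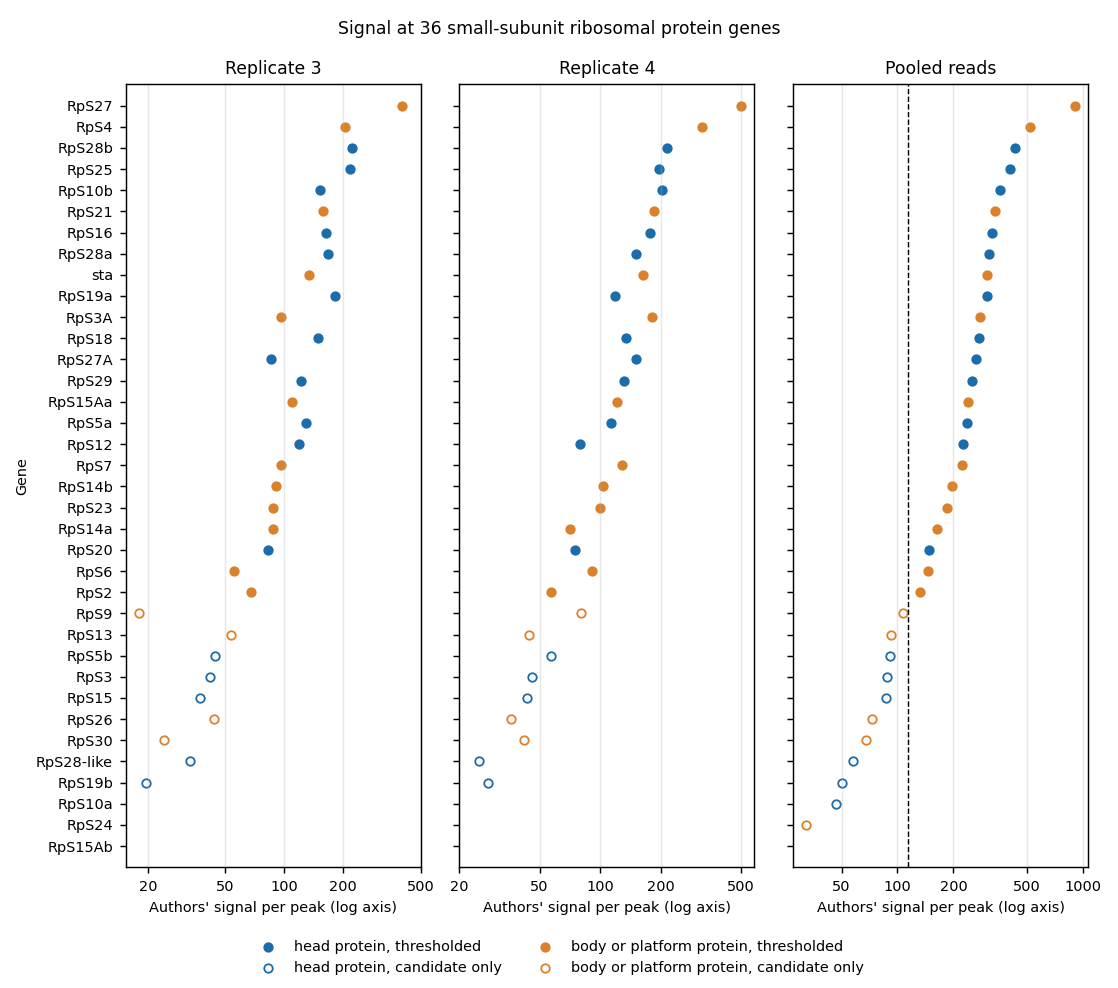
Signal of the summit of 36 genes in replicate 3, replicate 4 and the pooled reads, on log axes, with genes ordered by pooled signal, head proteins in blue and body or platform proteins in orange. Filled points are thresholded summits and open points are candidates below the threshold, whose lowest pooled signal of 114.4 is the dashed line; RpS10a and RpS24 had no candidate of either replicate within 100 bp of the pooled summit and RpS15Ab had no pooled candidate. RpS27 stands highest in all 3 panels.

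The strongest summits belonged to proteins of both domains of the subunit. RpS27, a zinc-binding protein of the platform, reached 403 in replicate 3, at rank 32, and 500.2 in replicate 4, at rank 17. Its pooled signal was 898.5 at rank 23, and the summit, at 25247488 on 3R, lay 16 bp before the nearer of its 2 start sites. RpS27 was thus the highest of the 39 genes in both replicates. RpS4, a protein of the body, had signals of 204.9 in replicate 3 and 321.2 in replicate 4, at ranks 196 and 53. The pooled rank of RpS4 was 90, and RpS27 and RpS4 were the only members among the 100 strongest pooled peaks. RpS28b, at the exit of the mRNA channel, had 221.9 and 213.2 in replicates 3 and 4, at ranks 160 and 144. RpS25, a head protein on which some viral internal ribosome entry sites depend in human cells, had 216.9 and 194.9, at ranks 169 and 184. The replicates placed RpS28b and RpS25 at closely similar ranks, whereas RpS4 ranked 3.70 times higher in replicate 4.

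RpS10b, a protein of the beak, had signals of 152.5 in replicate 3 and 202.3 in replicate 4, with a pooled rank of 230. RpS21, which sits beside uS2, had 157.5 and 183.8, with a pooled rank of 273. RpS16, whose tail reaches the P-site tRNA, had 163.4 and 177.3, with a pooled rank of 292. The gene sta had 133.9 and 163.1, and its pooled summit lay 1 bp from a start site. RpS19a, whose human homologue is mutated in Diamond-Blackfan anaemia, had 181.5 and 117.7, at ranks 269 and 600. RpS28a was the remaining gene of the 10 strongest, at pooled rank 321, and its summit was of another kind, as given with the duplicated genes. Of these 10, RpS19a, RpS25 and RpS28a ranked higher in replicate 3 and the other 7 in replicate 4.

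The 13 bound head genes of 19 had a median pooled signal of 275 and the 14 bound body and platform genes of 20 had 209.1. Bound shares were thus 68.4% in the head and 70% in the body and platform. Proteins with a bacterial homologue were bound at 12 of 18 genes, with a median of 216.3, and those without one at 15 of 21, with a median of 302.7. Lower in the list were genes of well-studied proteins. RpS6, the substrate of S6 kinase, ranked 3327 in replicate 3 and 1064 in replicate 4. RpS12, known in flies for its part in cell competition, ranked 689 and 1410. RpS27A, which is made as a fusion with ubiquitin, ranked 1365 and 344. RpS3A, of the platform and the only member on chromosome 4, ranked 1077 and 225, a ratio of 4.79 that was the highest among bound genes. In the pooled list the head proteins RpS18, RpS29 and RpS20 ranked 422, 510 and 1529. The body protein RpS7 ranked 662, RpS23, which lines the decoding centre, 971, and RpS2, at the entry of the mRNA channel, 1883.

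Both replicates placed a candidate summit within 100 bp of all 27 thresholded summits, and within 50 bp for 26, with RpS20 as the exception. The median shift from the pooled summit was 11 bp in replicate 3 and 4 bp in replicate 4. In 23 of the 27 genes the summit ranked among the 2487 strongest of both replicates. Among the others, RpS6 fell outside them in replicate 3, at 3327, and RpS2 in replicate 4, at 2643. The signals of the replicates had a Spearman rho of 0.810 across the 27 genes; this describes sites within 1 pair of libraries that share a control, and the genes were bound only if the pooled signal was high. With pooled reads of both replicates behind the list, their agreement is in part built in.

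**Figure D2:**
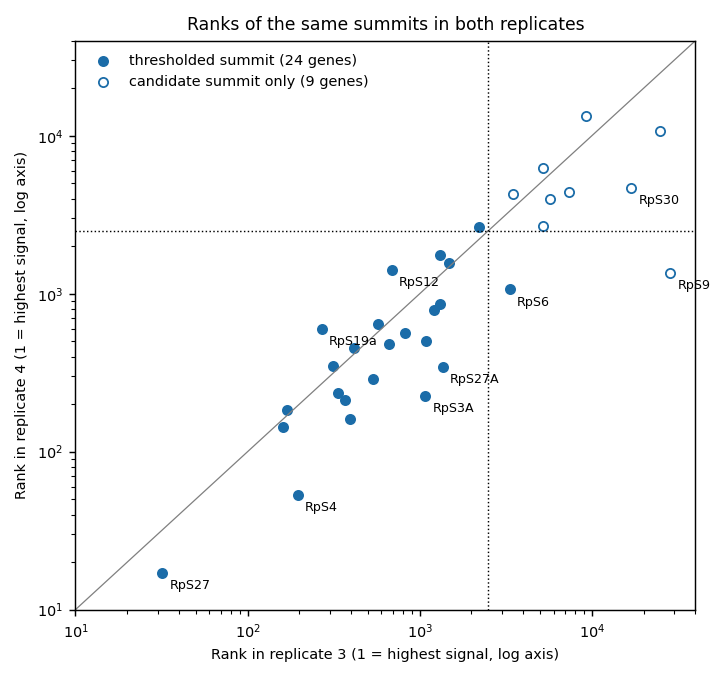
Rank of the same summit in replicate 3 (x) and replicate 4 (y), log axes, for 33 genes with a candidate of both replicates within 100 bp of the pooled summit; dotted lines mark rank 2487 and the grey line equal ranks. RpS9, at 28514 and 1361, lies farthest from the line.

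The 12 genes without a thresholded summit differed in how far they were from one. RpS9, at the entry of the mRNA channel, had a candidate 82 bp after a start site, at 18.0 in replicate 3 and 80.7 in replicate 4. Its ranks were 28514 and 1361, and its pooled signal of 107.1 at rank 2813 was the first of the members below the threshold, whose lowest signal was 114.4. RpS9 was therefore among the 2487 strongest in replicate 4 alone. RpS3, another protein of the channel's entry, had 41.8 in replicate 3, 33 bp before its start, and 45.8 in replicate 4, 79 bp after it. RpS15, which reaches the decoding site, had 36.9 and 43.4, 56 and 35 bp after its start. RpS26, at the exit of the channel, had 43.9 and 36.1, and RpS30, which is made as a fusion with a ubiquitin-like protein, had 24.1 and 42.0, both within 50 bp of a start. RpS5b had 44.2 and 56.8. RpS3, RpS15, RpS26, RpS30 and RpS5b thus had weak promoter candidates in both replicates, at ranks between 2686 and 16933.

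RpS24, of the body, had a pooled candidate 69 bp after its start with a signal of 32.4, at rank 24141. It had no candidate of either replicate within 100 bp of that summit. Within 1 kb of its start, replicate 3 had a candidate of 36.0 at rank 7734, 369 bp before the start, and replicate 4 had none. For RpS13, RpS28-like, RpS19b and RpS10a the strongest pooled candidate was 688 to 893 bp from a start site. At RpS13, a protein of the body, it lay in a coding exon, with 53.7 in replicate 3 and 44.2 in replicate 4. At RpS28-like it had 32.8 and 25.1 and lay 103 bp from a start of numb, the gene of a Notch inhibitor. So 7 of the 11 genes with a candidate below the threshold had it within 100 bp of a start site, and 4 did not.

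Bound summits lay close to the start site. The strongest summit was within 100 bp of an own start site at 26 of the 27 bound genes (96.3%), with a median distance of 16 bp. Among the 1626 bound protein-coding genes that are not members, 611 (37.6%) had it that near, with a median of 151 bp. The large-subunit genes, the closest relatives of these genes in function, did so at 39 of 40, with a median of 22 bp. The summit lay before the start at 11 of the 27 genes and after it at 16. It fell in an annotated 5' UTR at 19 genes, upstream of the gene at 7 and beyond its end at 1, RpS28a. Their peaks were often narrower than the usual width: 9 of 27 had the commonest width of 380 bp, where 72.2% of all thresholded peaks did. Those 9 had pooled signals of 226.7 or lower, where the median of the 27 was 252.8. Width was not compared at equal signal.

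**Figure D3:**
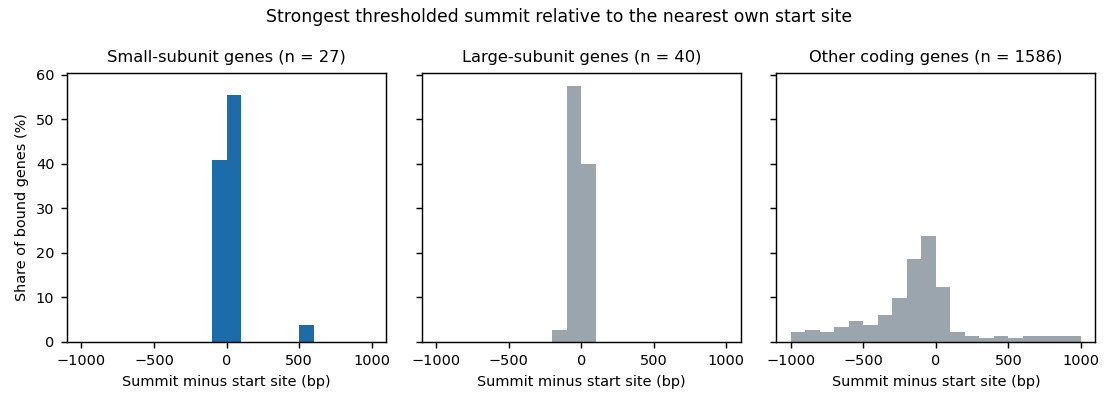
Distance of the strongest thresholded summit from the nearest start site of the same gene, in bins of 100 bp, as a share of the bound small-subunit (27), large-subunit (40) and other protein-coding genes (1586). The small-subunit summits lie within 100 bp of the start except that of RpS28a at 500 bp.

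Start sites of other genes were rarely nearer to these summits. At 2 of the 27 genes the start of another gene was nearer. At RpS28a it was Mgat2, an N-glycan processing gene, 73 bp from the summit. At RpS6 it was the pseudogene CR33222, 20 bp from a summit that lay 49 bp from RpS6. RpS27A and Ip259 were equally far, at 34 bp each, from the summit between them. Another protein-coding start lay within 200 bp at 5 genes, among them RpS27, whose summit was 170 bp from Nup37, a nucleoporin gene. The second summit of RpS28b, with a signal of 156.5 at rank 1321, was 794 bp before RpS28b and 79 bp from l(1)G0320.

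In 4 of the 6 duplicated pairs 1 copy was bound and the other was not. RpS5a had signals of 129.9 in replicate 3 and 113.2 in replicate 4, where RpS5b, known for expression in the ovary, had 44.2 and 56.8. RpS10b had 152.5 and 202.3, where RpS10a had 40.7 in replicate 3 at its strongest candidate, 688 bp before the start, and none within 1 kb in replicate 4. The bound copy was the higher of both pairs wherever both copies had a value. RpS15Aa had 109.4 and 121, where RpS15Ab had 26.9 in replicate 4, 858 bp before its start, and none in replicate 3. RpS19a had 181.5 and 117.7, where RpS19b, known from the germ line, had at most 29.2 in replicate 3 and 27.8 in replicate 4, 288 and 880 bp before its start. The values of RpS10a, RpS15Ab and RpS19b come from candidates away from the promoter, so no level at their start sites was measured.

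Both copies were bound in the remaining pairs. The neighbours RpS14a and RpS14b, which encode the same platform protein, had 87.2 and 90.8 in replicate 3 and 70.9 and 104 in replicate 4. Their summits were 1157 bp apart, each within 2 bp of its own start. The longest exact run shared by the 401 bp windows around the summits was 11 bp. RpS28b had 221.9 in replicate 3 and 213.2 in replicate 4. RpS28a had 167.9 and 150, but 500 bp after its start, beyond the end of that 304 bp gene and beside Mgat2. By position, then, RpS28b alone of that pair had a summit at its promoter.

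**Figure D4:**
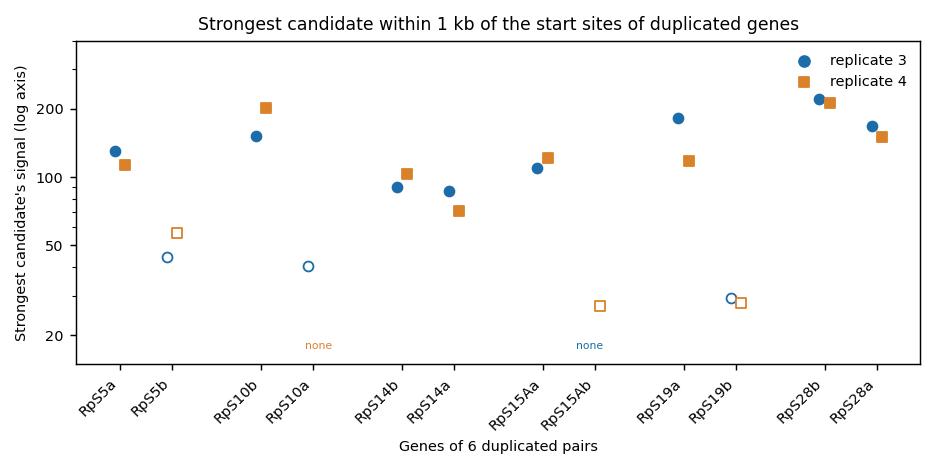
Signal of the strongest candidate within 1 kb of any start site for the genes of 6 duplicated pairs, in replicate 3 (circles) and replicate 4 (squares), log axis. Filled symbols are genes with a thresholded summit and open symbols those without; "none" marks a replicate with no candidate. RpS5a, RpS10b, RpS15Aa and RpS19a lie above their partners.

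The promoters shared features that the choice of genes did not use. CTTTNT, read on the gene's strand from 10 bases before the main start to 20 from it, occurred at 19 of the 39 genes (48.7%), at 35.2% of the 54 large-subunit genes and at 3.33% of all protein-coding genes. It was present at 14 of the 27 bound genes and at 5 of the 12 others, including RpS3, RpS5b and RpS26. Among other bound protein-coding genes it occurred at 63 of 1626 (3.87%). The DRE was searched on both strands in promoter windows from 250 bases before the main start to 50 from it. It occurred at 13 of 39 members (33.3%), at 27.8% of large-subunit genes and at 9.23% of all protein-coding genes. Bound and unbound members held it at the same rate, 9 of 27 and 4 of 12. CGATA, which lies within the DRE, occurred at 74.4% of members, 72.2% of large-subunit genes and 47.5% of all protein-coding genes. GGTCACACT, a form of Motif 1 of the housekeeping core promoter, occurred at 4 of 39 members (10.3%) and 11.1% of large-subunit genes, against 6.07% of all. GAGAGAG, a site of the factor GAF, occurred at none of the 39 members and none of the large-subunit genes, against 6.16% of all protein-coding genes.

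The sites described for the E(spl) family differed in frequency from one to the next. CACGTG occurred in none of the 39 promoter windows, against 18.5% of those of large-subunit genes and 4.20% of all protein-coding genes. Within 100 bp of the strongest summit, where the windows reach farther past the start, it occurred at 2 of the 27 bound genes, RpS4 and RpS28b, against 5.74% of 1341 other thresholded summits near coding starts. The sites shown for RpS4 and RpS28b begin 61 and 45 bases after the start nearest the summit. For RpS4 the promoter window was set from another start, at 13041756, which lies farther from the site. Neither site lies whole within the promoter window. The count of none thus depends on where that window ends. CACGCG occurred at 6 of 27 member summits (22.2%), against 10.4% of the others. It was in the promoter windows of 17.9% of members, 14.8% of large-subunit genes and 6.30% of all genes. The members with it at the summit were RpS21, RpS19a, RpS18, RpS27A, RpS7 and RpS23. CACNAG, the N box, stood at 6 of 27 member summits against 348 of 1341 others, and the general E box CANNTG, which includes CACGTG, at 63.0% against 66.4%. The DRE stood at 7 of 27 member summits (25.9%) against 4.47% of the others, and GAGAGAG at 0 of 27 against 11.9%. The median GC content of these windows was 44.8% for members and 42.8% for the others. These shares were not tested, and no match says only that the letters were not in the window. The summit windows of members and others were not matched for distance from a start. Of bound members, 96.3% had the summit within 100 bp of a start, against 37.6% of other bound protein-coding genes.

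**Figure D5:**
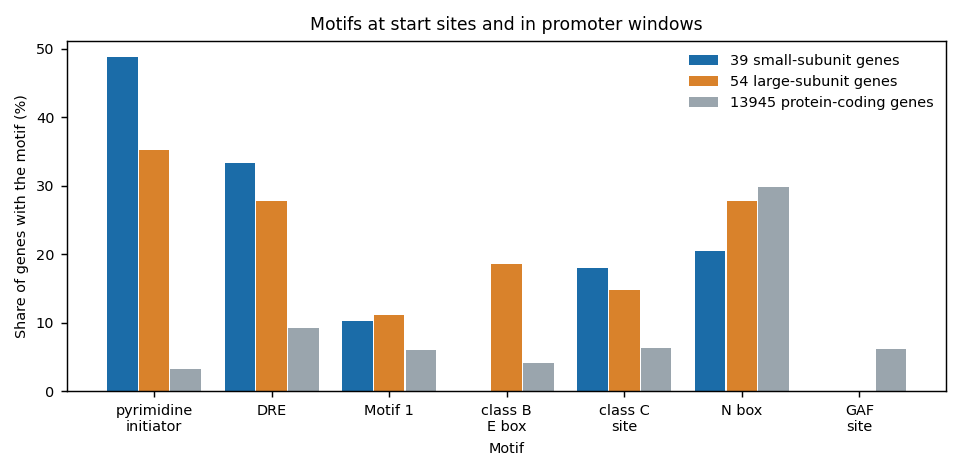
Share of genes with each motif, for small-subunit, large-subunit and all protein-coding genes: the pyrimidine initiator, scored as any CTTTNT near the main start, and the other motifs in promoter windows of 300 bases. The initiator, the DRE and the class C site are more frequent in both ribosomal sets than over all genes, and the GAF site is at 0 in both. The class B E box is at 0 in the promoter windows of small-subunit genes, but 2 of the 27 bound ones hold it within 100 bp of the summit.

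Host genes of small nucleolar RNAs were bound at a high rate within the family. Small nucleolar RNAs guide the modification of ribosomal RNA and in flies are cut from introns of host genes. Of the 13 members with an annotated one on the same strand, 12 were bound, with RpS9 as the exception, and 15 of the 26 without one were bound. RpS5a held 14 of these RNAs and RpS7 held 7. Among the 71 other protein-coding hosts, which include large-subunit genes, 34 (47.9%) were bound. By chromosome, all 9 members on the X were bound, where 9.56% of its protein-coding genes were, and so was the 1 member on chromosome 4, where 13.75% were. The other arms had 3 of 4 members bound on 3L (11.9% of its protein-coding genes), 7 of 12 on 3R (12.2%), 4 of 7 on 2R (12.9%) and 3 of 6 on 2L (12.0%). The members had a median of 2 annotated start sites and all protein-coding genes a median of 1, so a member offers more positions to be near. With only the most upstream start of each gene, 27 members were still bound. The share over all protein-coding genes was not computed for that setting.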

How the data were processed

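Chromatin immunoprecipitates of E(spl)m5-GFP embryos (2 samples, replicates 3 and 4, fragments of 200 to 800 bp per the labels) were analysed from the authors' peak lists. Per the text listings deposited beside the lists, the authors made candidate lists on dm6 for replicate 3, replicate 4 and their pooled alignments, all against 1 control alignment, and an irreproducible discovery rate procedure gave the thresholded list from these. Aligner, caller, threshold and depth were not given in the sources used here; no interval could therefore be set. The deposited signal is the authors' value per peak, made separately for each list; it was used to rank and describe peaks within a list and never averaged across lists.

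Summits (peak start plus the summit offset, given 1-based) were set against every start site of Ensembl release 115. Promoter sequences were read from the RefSeq genome, within whose chromosome lengths all peak and gene ends lay. The values of 3 members are not reported singly here, in text or figures; they remain in all counts and medians. Every other member is named. Replicate signals, where a candidate existed, are given for the 10 strongest, the duplicated pairs and the members without a thresholded summit. The last include the member whose replicate ranks differ over 10 times. Pooled signals and ranks are given for only some of these. The members and lists were chosen with earlier results of these data known. No statistical test was made. Offsets and motif matching were checked on simulated data. Alternatives were other distances, start sites, lists, matching distances and windows. Python 3.11.15, numpy 2.4.6, pandas 2.3.3, scipy 1.17.1 and matplotlib 3.10.9 were used.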

Additional observations from a re-analysis of the deposited data

How the results depend on the processing

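The number of bound members stayed between 22 and 27 under every alternative tried: 27 at 500 bp, 27 at 2 kb, 26 at 200 bp, 22 in the stronger part of the list, 25 when a summit counted only for its nearest gene, 26 without replicate 3 and 24 without replicate 4. Over all protein-coding genes the share was 9.996% at 500 bp, 15.04% at 2 kb, 7.51% at 200 bp and 5.99% in the stronger part of the list. That share was not computed for counting by nearest gene, so the 25 has no background beside it. The median signal was 252.8 in the report, 245.9 over all thresholded summits near members, and 190.5 over the strongest pooled candidates of the 38 members with one. Summits nearer to another gene numbered 2 over all genes and 1 over protein-coding genes only, since CR33222 is a pseudogene. The DRE or Motif 1 was held by 8 summits within 100 bp and by 4 within 50 bp. The CTTTNT count was 21 with any annotated start, an alternative added after the data had been seen. No paired analysis was possible because both samples belong to 1 group. Depth is unknown, so a missing candidate does not show that a promoter was unbound, and 2 replicates measure the spread of a single gene poorly.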

Other observations

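Genes that work with the 40S subunit were also looked up. Rack1, the receptor for activated kinase C that sits on the head of the subunit and whose symbol the choice of genes did not take, had a summit 6 bp from a start site with a pooled signal of 320.6, at rank 297. Factors of 40S assembly were bound at 3 of 9 matched genes: Fib, the ribosomal RNA methyltransferase, the nucleolar protein gene Nopp140, and bys. The summit counted for bys lay 598 bp from its start and is the one counted for RpS6, 49 bp away; 2 further symbols, Nob1 and Ltv1, were not matched. Initiation factor genes (eIF symbols) were bound at 9 of 44, elongation factor genes at 4 of 7, and genes of the mitochondrial small subunit at 5 of 26. The large-subunit genes were bound at 40 of 54, with a median signal of 243. None of these shares was tested against another.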
